A study of Arabidopsis thaliana with 6 samples.

Results

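Histone, DNA replication and cell cycle genes were followed in Arabidopsis rosette leaves after 48 h of light submergence. A gene entered the set when a probe set of the array was annotated to it alone and its symbol began with a name such as MCM, ORC, CYC, CDK, CDC, AUR, PCNA, POL, HTA, HTB or HTR and held a number. The rule used only names, and it found 12 genes of the 13286 with a probe set of their own. These were the replication genes POLA3 and POLD3, the cell cycle genes AUR1, AUR2, AUR3, CDC27a and cdc2cAt, and the histone genes HTB1, HTB2, HTB4, HTB11 and HTR12. Most probe sets carry only a locus identifier in that annotation, so that no cyclin, ORC, PCNA, E2F or histone H2A gene was among the 12. RefSeq lists 124 Arabidopsis genes with such symbols, and the 12 are therefore a small part of the pathway.

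The arrays were Affymetrix ATH1 chips, 3 for plants submerged for 48 h and 3 for untreated controls taken at 0 h. All plants were wild-type Columbia (Col-0), 4 weeks old at treatment and grown in a cycle of 16 h light and 8 h dark, and the submerged ones stood 5 to 10 cm under water. Per the study's methods, each array holds tissue pooled from several plants, and the light during submergence was dimmer than during growth. The submerged plants were also 48 h older at harvest, so submergence, dimmer light and age cannot be told apart. Values are log2 signals, on which 1 unit is a doubling, and arrays of one group correlated at 0.921 for submergence and 0.909 to 0.924 for the controls. The tissue label was checked with 8 light harvesting and photosystem genes, chosen by symbol after the data had been seen. All but LHCB4.3 ranked in the top 1% of signals on every control array, and all 8 fell after submergence (median log2 fold change -1.89). By the calls defined below, 24.3% of all probe sets fell. None of the 6 classical leaf markers planned for this check had a named probe set.

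A dividing plant cell copies its DNA once in S phase and packs it on new nucleosomes, so replication enzymes and the core histones H2A, H2B, H3 and H4 are made together at that time. Mitosis then calls on Aurora kinases, which act at the spindle, the centromere and the new cell plate, and on the anaphase-promoting complex, which marks cyclins for destruction. Most cells of a full-grown rosette leaf no longer divide. Transcripts of this kind come mainly from young leaves, the shoot apex and dividing cells of the stomatal and vascular lineages. Some histone variants are also made outside S phase, where they replace nucleosomes that are lost.

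After 48-h light submergence, 6 of the 12 genes fell and none rose. The 6 were the H2B genes HTB2 and HTB1, the primase gene POLA3, the Aurora kinase genes AUR1 and AUR2, and POLD3, whose call was marginal. Calls required a difference of 1.5-fold or more and, from limma, an adjusted p under 0.05. By that rule 24.3% of all 22746 probe sets were called lower and 18.3% higher. The 50% of members called lower is a larger share than that background, but over so few genes it is only a description. The median log2 fold change of the 12 was -1.37, against -0.26 for all probe sets and -1.89 for the 8 light harvesting and photosystem genes. With an offset of 32 added to the signals the median of the members was -0.62, and without control 3 it was -0.88. Every submerged array lay under every control array for 8 of the 12, which was so for 31.5% of all probe sets. In these bulk samples, fewer cells that express a gene and less RNA per cell cannot be told apart.

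**Figure D1:**
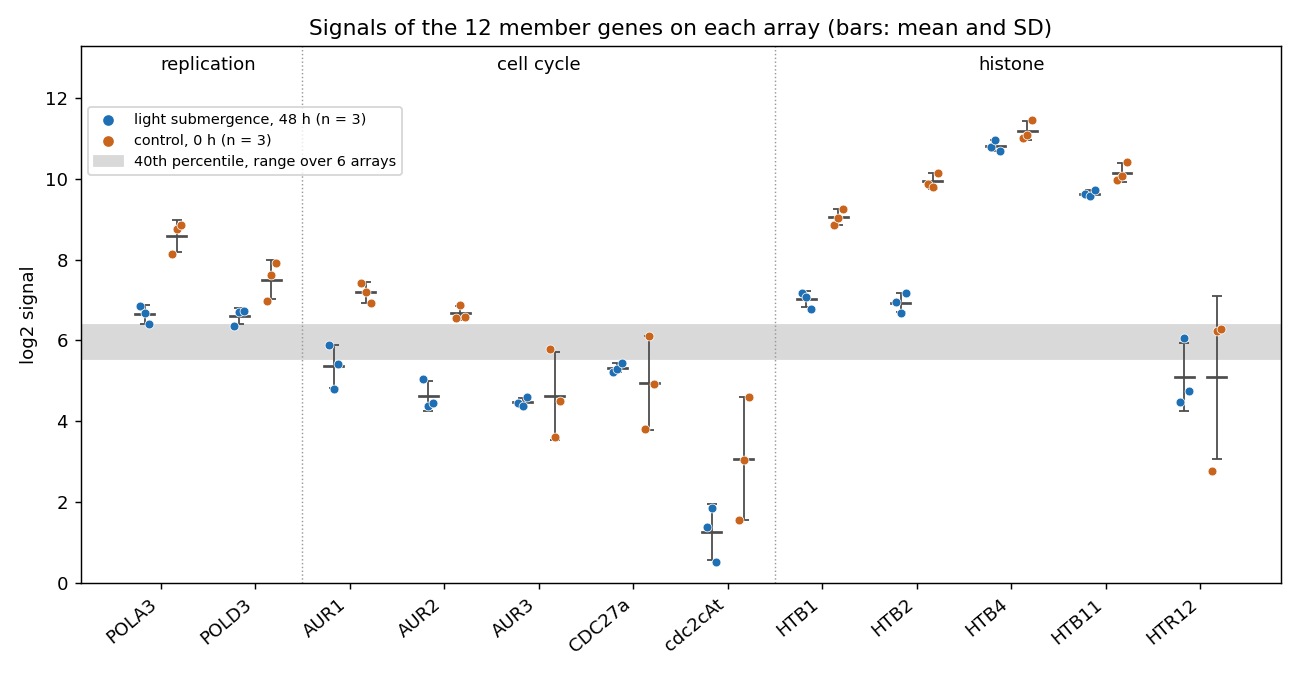
Log2 signal (y axis) of the 12 genes on each array, with the 3 light submergence arrays left of the 3 controls for each gene, horizontal lines and bars for the mean and SD, and a grey band for the range of the arrays' 40th percentiles. The submerged arrays lie under the controls without overlap for POLA3, POLD3, AUR1, AUR2, HTB1, HTB2, HTB4 and HTB11, while AUR3, CDC27a, cdc2cAt and HTR12 are dim and overlap.

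Signals at or under the 40th percentile of an array were treated as background. This level lay at log2 5.55 to 5.84 on the submerged arrays and 6.17 to 6.39 on the controls. By this measure 8 of the 12 genes were above background on at least 3 arrays, and the 6 that fell were among these 8. The same filter kept 14538 probe sets in all, of which 33.8% were called lower. Passing this filter is not independent of the change, so nothing is read from the 6 of 8. Replicates of the 8 genes had SDs of 0.08 to 0.54 in submerged and 0.18 to 0.48 in control plants. For the 4 dim genes the SDs were 0.11 to 0.85 and 1.09 to 2.02. Even the narrowest 95% interval among the 4 dim genes, that of CDC27a, ran from -1.21 to 1.97 on the log2 scale.

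Both replication genes were lower under water. POLA3, which encodes a primase subunit of DNA polymerase alpha, had log2 signals of 6.86, 6.69 and 6.40 in submerged plants, against 8.14, 8.77 and 8.85 in the controls. The groups were separated by 1.28 log2 units, several times the SD within either. POLA3 fell 3.83-fold (log2 fold change -1.94 ± 0.28 SE, limma adjusted p = 0.000217). This call held under every alternative tried.

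POLD3, for an accessory subunit of the replicative DNA polymerase delta, had signals of 6.37, 6.71 and 6.73 in submerged plants and 6.98, 7.63 and 7.92 in the controls. The groups were apart by only 0.25, and control 1 lay closest to the submerged arrays. POLD3 was 1.88-fold lower (log2 fold change -0.91, adjusted p = 0.0488 from limma). Its call was lost under most alternatives, among them quantile normalization, where the log2 fold change was -0.49 and the adjusted p = 0.302. It was also lost with the replicate number as a block (adjusted p = 0.0561) and when any of the 3 submerged arrays, or control 2 or 3, was left out (adjusted p = 0.0614 to 0.193).

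Among the mitotic genes, 2 of the 3 Aurora kinases fell. AUR1 and AUR2 are the closely related pair that sits on the spindle and the forming cell plate, and AUR3 is the centromeric form. AUR1 had signals of 5.88, 4.80 and 5.41 in submerged plants, against 7.43, 7.21 and 6.93 in the controls. It was above background on 1 of 3 submerged arrays and on all 3 controls. The measured difference was 3.55-fold (log2 fold change -1.83 ± 0.44 SE, limma adjusted p = 0.006).

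AUR2 had signals of 5.04, 4.37 and 4.44 in submerged plants and 6.56, 6.89 and 6.59 in the controls, with a gap of 1.51 between the groups. It was not above background on any submerged array, where only a bound can be given. Set against the 40th percentile of those arrays, the decrease of AUR2 was at least 1.91-fold (limma adjusted p = 0.00699). That percentile was higher on the controls (6.17 to 6.39), and the bound makes no allowance for this difference. AUR3 was above background on no array. Its submerged signals of 4.45, 4.37 and 4.59 lay inside the range of its control signals of 5.78, 3.60 and 4.51, and no direction can be read from it. Whether AUR3 differs from AUR1 and AUR2 was not tested, since it was not measured above background.

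The remaining cell cycle members were dim. CDC27a, a subunit gene of the anaphase-promoting complex, had 5.22, 5.30 and 5.45 in submerged plants and 3.80, 6.11 and 4.92 in the controls. The kinase gene cdc2cAt, of the CDC2 family, had 1.37, 1.86 and 0.50 in submerged plants and 1.56, 3.04 and 4.60 in the controls. Neither passed the test (adjusted p = 0.717 and adjusted p = 0.2 from limma), both were above background on no array, and for both the groups overlapped.

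The histone genes split within one family. All 4 measured H2B genes were bright in control leaves, yet HTB1 and HTB2 fell under water while HTB4 and HTB11 were not called. HTB2 showed the largest change of any member. Its signals were 6.95, 6.69 and 7.17 in submerged plants, against 9.89, 9.81 and 10.16 in the controls. That is a decrease of 8.09-fold (log2 fold change -3.02 ± 0.20 SE, limma adjusted p = 1.44e-06). In rank, HTB2 stood at the 50.5 to 52.0 percentile of submerged arrays and at the 83.4 to 86.6 percentile of controls.

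HTB1 had signals of 7.18, 7.07 and 6.79 in submerged plants and 8.86, 9.04 and 9.27 in the controls. It fell 4.11-fold (log2 fold change -2.04 ± 0.22 SE, limma adjusted p = 2.85e-05). The 2 groups of HTB1 values were apart by 1.68, where their SDs were 0.20 each. The calls of HTB1 and HTB2 held under every alternative tried, with log2 fold changes of -2.14 to -1.80 for HTB1 and -3.13 to -2.72 for HTB2.

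HTB4 had signals of 10.80, 10.98 and 10.70 in submerged plants, against 11.03, 11.10 and 11.46 in the controls. The difference of -0.37 did not pass the test (limma adjusted p = 0.0857), and its 95% interval ran from -0.72 to -0.02. HTB11 had 9.62, 9.57 and 9.72 in submerged plants and 9.98, 10.07 and 10.42 in the controls. At 1.43-fold it stayed under the fold threshold, with a log2 fold change of -0.52 (95% interval -0.87 to -0.17, adjusted p = 0.0208 from limma). Both genes thus lay slightly lower on all submerged arrays, and HTB11 did pass after quantile normalization (log2 fold change -0.64) and without control 1 (-0.61).

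The unequal change within the H2B family was examined on each array as the difference between the log2 signals of a pair of genes, a quantity that no scaling factor of an array alters. HTB2 minus HTB4 was -3.85, -4.29 and -3.53 on the submerged arrays and -1.14, -1.30 and -1.29 on the controls. The shift between the groups was -2.65 ± 0.23 (SE, n = 3 each). For HTB2 minus HTB11 it was -2.50 ± 0.11, for HTB1 minus HTB4 -1.67 ± 0.10, and for HTB1 minus HTB11 -1.52 ± 0.16. In all 4 pairs the submerged and control arrays did not overlap. Each gave p = 0.1 in a two-sided exact permutation test (adjusted p = 0.1 over the 4 pairs), which is the smallest value that 3 arrays against 3 allow. The pairs were chosen after the values had been seen and reuse the same 4 genes, so nothing is read from these p-values. H2B genes are similar in sequence, and cross-hybridisation between their probe sets was not tested.

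**Figure D2:**
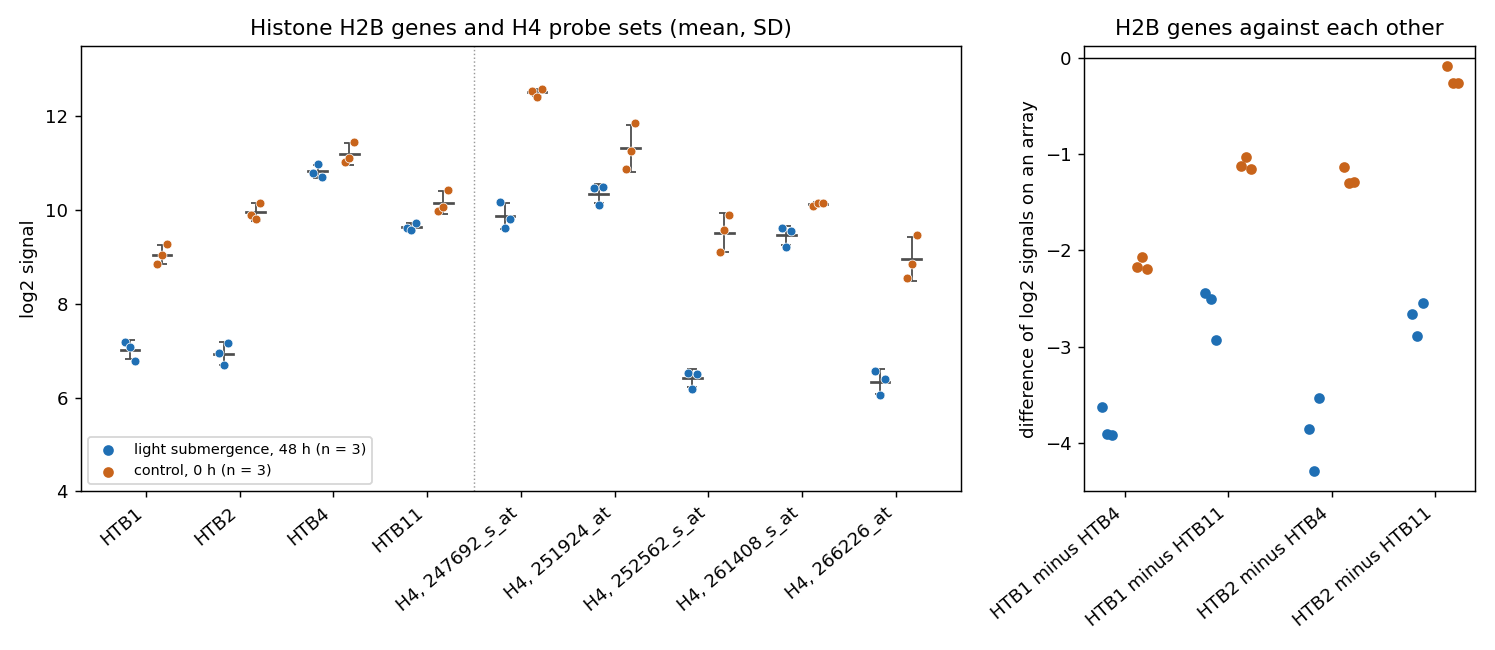
Left, log2 signals of the 4 H2B genes and of 5 probe sets shared by histone H4 genes on each array, with lines and bars for the mean and SD and the 3 light submergence arrays left of the 3 controls. Right, the difference between the log2 signals of 2 H2B genes on each array, which lies lower on every submerged array than on every control in all 4 pairs.

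HTR12, the centromeric histone H3 also called CENH3, was above background on 1 array of each group. Its signals were 4.47, 6.06 and 4.75 in submerged plants and 2.76, 6.24 and 6.28 in the controls. The log2 fold change was 0.00, with a 95% interval from -2.20 to 2.21, so that neither a rise nor a fall could be resolved.

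Histone H4 was measured by 5 probe sets that the annotation gives to the same 8 genes, HIS4 and 7 other loci, and that name no single one of them. All 5 were called lower after submergence, as were 24.3% of all probe sets. As the annotation gives them the same genes, they are not counted as 5 independent results. Which of these genes each probe set detects was not tested. The changes were again of unequal size. For 247692_s_at the signals were 10.17, 9.61 and 9.82 in submerged plants and 12.54, 12.42 and 12.58 in the controls, 6.24-fold lower (limma adjusted p = 9.66e-07). The probe sets 252562_s_at and 266226_at fell 8.67-fold and 6.16-fold. In contrast, 251924_at fell 1.96-fold (limma adjusted p = 0.00611) and 261408_s_at 1.59-fold (limma adjusted p = 0.00445). The call of 251924_at was lost without the variance trend (adjusted p = 0.0537), and that of 261408_s_at without submergence array 2, where its log2 fold change was -0.55.

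Histone genes of Arabidopsis lie scattered, some of them close to each other. In the gene order of RefSeq's TAIR10.1 annotation, HTB1 was separated from the H4 locus AT1G07820 by 2 protein-coding genes. HTB4 and AT5G59970 had 5 such genes between them, and HTB11 and AT3G45930 had 9. Only the 11 loci on a list of further histone genes were considered, and other histone genes were not searched. HTB2, the member with the largest decrease, had no near neighbour on that list, with 3293 protein-coding genes to the nearest listed locus. HTB1, which fell, and HTB4 and HTB11, which were not called, had one.

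None of the 3 listed linker histone genes measured, whose proteins bind DNA between nucleosomes, was called in either direction, and neither was HON4. HIS1-3, known as the linker histone induced by drought, had 5.96, 6.18 and 7.48 in submerged plants, above background on all 3 arrays, and 3.70, 6.30 and 5.07 in the controls, above background on none. Its log2 fold change of 1.52 did not pass (limma adjusted p = 0.121), although it did after quantile normalization (adjusted p = 0.0498) and without control 2 (adjusted p = 0.0417), in a range of 0.0417 to 0.362 over the alternatives. Background was higher on the controls, so HIS1-3 at 6.30 in control 2 counted as background, while submerged signals of 5.96 and 6.18 did not. HON4, a related gene found through a synonym, was at 10.31 ± 0.18 in submerged and 9.80 ± 0.03 in control plants (SD, n = 3 each). At 1.43-fold higher it was under the fold threshold. AT1G06760 and AT2G30620, linker histone genes on a list of further histone loci, had log2 fold changes of 0.33 and 0.20 and were not called.

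Further genes of the pathway came from lists drawn up by locus, of which few had a named probe set. Of 26 listed S-phase genes 3 were measured, and 2 of them fell. ICU2, the catalytic subunit of DNA polymerase alpha that works with the primase of POLA3, had signals of 3.21, 3.81 and 4.83 in submerged plants and 6.87, 7.46 and 6.88 in the controls. On no submerged array was it above background. Set against that background, the decrease of ICU2 was at least 2.51-fold (limma adjusted p = 0.00164), with no allowance for the higher background of the controls. PSF2, of the GINS complex at the replication fork, was above background on 1 of 3 submerged arrays and measured 2.40-fold lower (limma adjusted p = 0.0241), a call lost after quantile normalization and when any array but submergence 3 was left out. AT5G26680, held by locus alone, had a log2 fold change of -0.09.

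Both of the mitosis genes measured, of 20 listed, fell below background. BUB3.1, of the spindle checkpoint, had 5.69, 3.91 and 5.46 in submerged plants and 8.00, 8.00 and 7.91 in the controls, a decrease of at least 4.68-fold (limma adjusted p = 0.000675). TOPII, for topoisomerase II, which untangles sister chromatids, had 5.49, 0.67 and 2.25 in submerged plants and 7.54, 6.94 and 7.22 in the controls. That was a decrease of at least 2.81-fold (limma adjusted p = 0.00671). Like that of AUR2, the bounds of BUB3.1 and TOPII make no allowance for the higher background of the controls. The cell cycle inhibitor SIM, the 1 gene measured of a list of 12 inhibitors and DNA damage genes, was at 7.04 ± 0.39 in submerged and 7.03 ± 0.49 in control plants (SD, n = 3 each). Over the 4 pathway lists, 4 of 9 measured genes were lower and none higher. That is 44.4%, against 24.3% of all probe sets and 33.8% of those above background on at least 3 arrays. All 9 passed that filter, which is not independent of the change. Over so few genes the share is only a description.

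**Figure D3:**
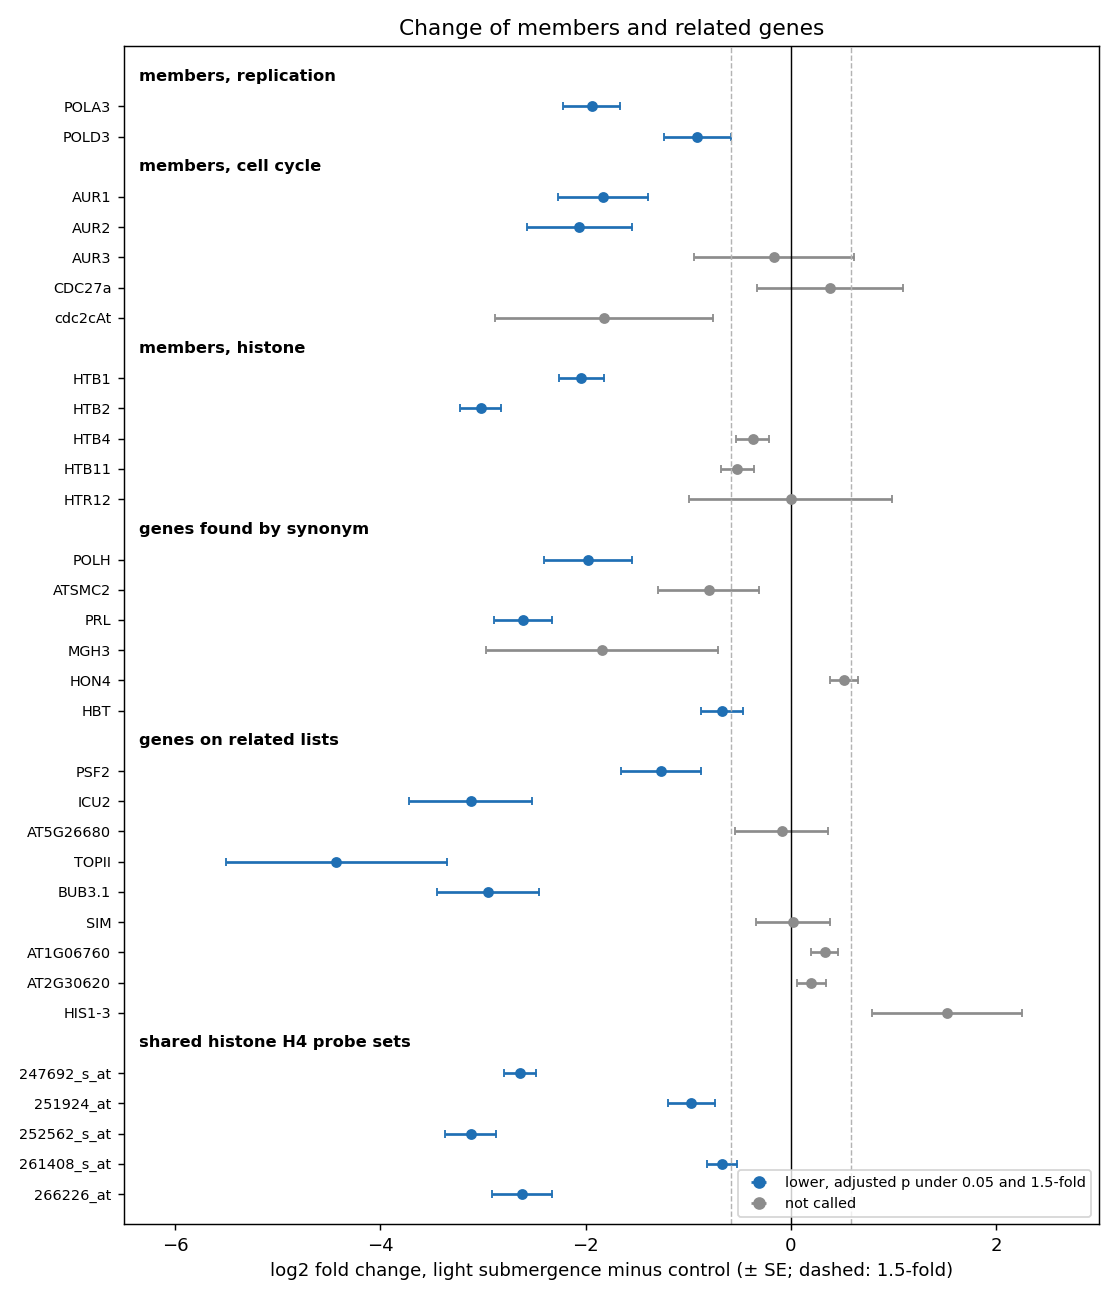
Log2 fold change of light submergence minus control (x axis, with the standard error) for the 12 members, 6 genes found by synonym, 9 genes on related lists and 5 shared H4 probe sets, in blue where called lower and grey where not called. AUR2, ICU2, BUB3.1 and TOPII were above background on no submerged array, so the text gives a bound for them, and MGH3, AUR3, CDC27a and cdc2cAt were above background on no array.

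A further 6 genes matched through a synonym or a spelling of the symbol that the rule did not cover, and they were added after the values had been seen. Of these, 3 fell and none rose, where 24.3% of all probe sets were called lower. Over 6 genes this is only a description. PRL, better known as MCM7, a subunit of the helicase that opens the DNA at replication forks, had 6.41, 6.45 and 5.70 in submerged plants and 8.63, 8.90 and 8.88 in the controls. It was 6.12-fold lower (log2 fold change -2.61 ± 0.28 SE, limma adjusted p = 3.24e-05). POLH, for a polymerase that copies damaged DNA, was 3.94-fold lower (limma adjusted p = 0.00346) and above background on 1 of 3 submerged arrays.

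HBT, also named CDC27b and like CDC27a a gene of the anaphase-promoting complex, was 1.59-fold lower. It was at 8.17 ± 0.26 in submerged and 8.84 ± 0.21 in control plants (SD, n = 3 each). Its adjusted p was 0.0214 from limma, and the call was lost without the variance trend and in 4 of the 6 fits that left out an array. The condensin gene ATSMC2 (log2 fold change -0.80, adjusted p = 0.222 from limma) and MGH3, a histone H3 of male gametes (log2 fold change -1.84, adjusted p = 0.227 from limma), were not called. MGH3 was above background on no array.

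Cell types that divide in a leaf were checked through their markers. Of 7 meristem markers only CLV3 had a named probe set, and of 8 genes of the stomatal lineage SPCH, MUTE and FMA had one. CLV3, SPCH and MUTE were above background on no array, with means of 1.54, 1.69 and 3.25 in submerged and 3.61, 4.08 and 3.49 in control plants. FMA, which acts at the last division before guard cells form, was above background on all 6 arrays. It was at 6.79 ± 0.93 in submerged and 7.35 ± 0.54 in control plants (SD, n = 3 each) and was not called (limma adjusted p = 0.389). The part of a changed number of such cells in the results above was not tested.

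**Figure D4:**
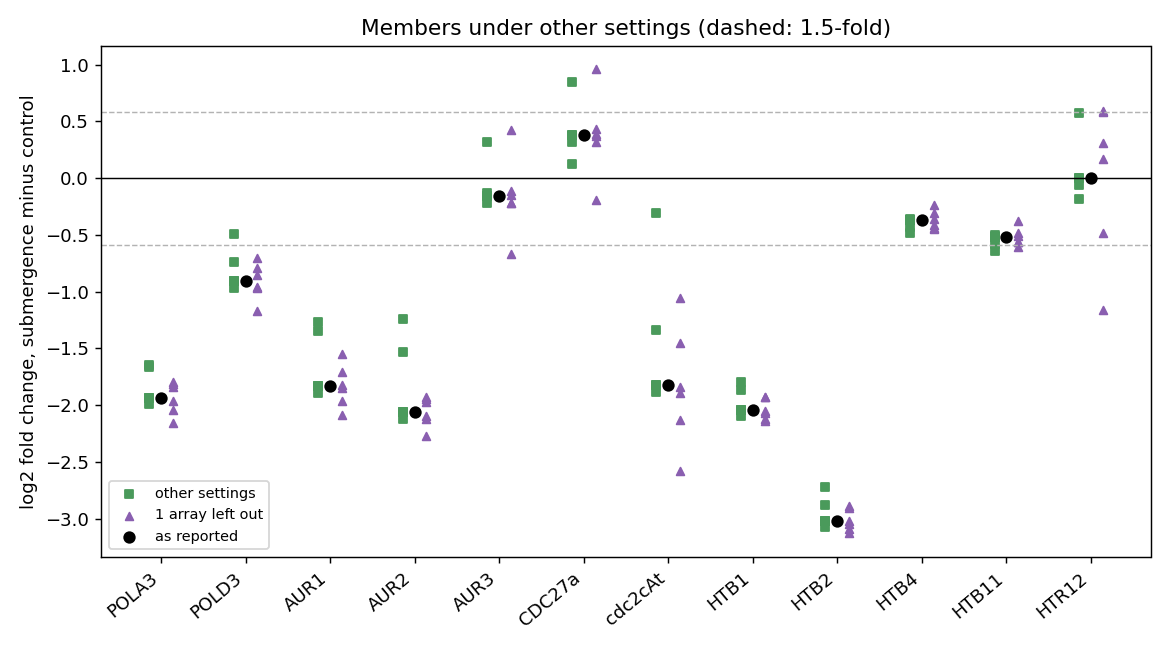
Log2 fold change of each member (y axis) as reported (black), under 6 other settings of the analysis where the gene was tested (green squares) and with 1 array left out (purple triangles). POLA3, AUR1, AUR2, HTB1 and HTB2 stay beyond the dashed 1.5-fold line throughout. POLD3, HTB11 and cdc2cAt cross it, and AUR3, CDC27a and HTR12 take both signs.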

How the data were processed

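RNA of rosette leaves was hybridised to 6 ATH1 arrays, 3 per group. The deposited values are log2 signals per probe set, which the authors made with the Affymetrix software MAS 5.0. On unlogged values, the 2% trimmed mean is 495.2 to 496.3 on every array. The labels name Trizol and leaves, the paper the RNeasy kit and rosettes. No detection calls were used. Of 22746 probe sets, 13513 had 1 gene in the platform annotation, 503 several and 8730 none. Of the 13513, 13436 matched a locus in RefSeq (TAIR10.1).

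Submergence minus control was fitted by limma 3.58.1 in R 4.3.3 on all probe sets, with a variance trend, no block and Benjamini-Hochberg adjustment, and the script was tested on simulated data. The study names GeneSpring with 1.5-fold, a p under 0.05 and no stated adjustment. A bound set each array's 40th percentile, or the dim signal where higher, against the brighter group's mean. It makes no allowance for the 40th percentile being higher on the controls. Members, lists and tests were chosen with earlier results of these data known. Values on every array are given for called members and for paralogs, and up to 4 called genes per list are named. Promoter motifs were not examined, as no sequence was used here. Alternatives were quantile normalization, 75th percentile scaling, an offset of 32, a filter to 14538 probe sets, no trend, a replicate block, other thresholds, a gene's dimmest probe set, and leaving out each array. Replicates are called biological in the methods. The number of arrays and, for dim genes, signal near background limit the precision. Figures used matplotlib 3.10.9 in Python 3.11.15.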

Additional observations from a re-analysis of the deposited data

How the results depend on the processing

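Over the alternatives, the count of members called lower was 5 to 7, against 6 as reported, and no member was called higher. The replication genes called lower numbered 1 in place of 2 after quantile normalization, without the variance trend, with the replicate block and at a 2-fold threshold, and 1 to 2 when an array was left out, because POLD3 was lost. The median log2 fold change of the members was -0.99 after quantile normalization, -0.62 with the offset, -1.88 with the filter, which removes the 4 dim members, and -1.44 to -0.88 when an array was left out. For the replication genes it was -1.08 after quantile normalization, for the cell cycle genes -0.31 with the offset and -1.89 to -1.06 without an array, and for the histone genes -1.28 with the filter and -1.16 to -0.38 without an array (-1.16 without control 1, -0.38 without control 3). The cause of these shifts was not tested beyond what the filter removes. Quantile normalization put the median of all probe sets at 0.02, against -0.26 as deposited.

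Only uncalled genes changed sign. AUR3 was at 0.32 after quantile normalization and -0.67 to 0.42 without an array. HTR12 was at -0.06 with the 75th percentile subtracted, -0.18 with the offset and -1.16 to 0.59 without an array. CDC27a was at -0.19 to 0.96 without an array. AT5G26680 was at 0.44 after quantile normalization and -0.41 to 0.30 without an array, and SIM at -0.04 with the 75th percentile subtracted and -0.27 to 0.24 without an array. Deviations of same-numbered arrays correlated at only -0.0124 to 0.0592, which shows no strong shared effect of the replicate number. Whether same-numbered samples were harvested or processed together cannot be read from this. The replicate block changed no call of a member but that of POLD3.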

Other observations

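RPA1A, KRP4 and CDC48 carry symbols of the same kind but had no gene in the platform annotation, and were named through the first part of the paper's list of upregulated genes. They had been selected for their increase on these arrays, so their direction is no evidence, and they entered no count above. RPA1A, for a protein that covers single-stranded DNA, had log2 signals of 6.94, 7.35 and 7.34 in submerged plants, above background on all 3 arrays, and 5.38, 5.71 and 6.25 in the controls, above background on 1 (log2 fold change 1.43, adjusted p = 0.0126 from limma). KRP4, an inhibitor of cyclin-dependent kinases, had 8.21, 8.26 and 8.57 in submerged plants and 7.19, 6.47 and 6.85 in the controls, 2.84-fold higher (adjusted p = 0.000951 from limma). CDC48, a protein-unfolding ATPase of the ubiquitin pathway named for a yeast division mutant, had 13.16, 13.44 and 13.29 in submerged plants and 12.12, 11.87 and 12.13 in the controls, 2.39-fold higher (adjusted p = 0.000114 from limma).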
